A study of Bos taurus with 138 samples.

Results

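Polysomal RNA of cattle (Bos taurus) embryos was compared between the 8-cell stage and the morula, the compacted ball of cells that forms before the blastocyst. The material was the 3 heaviest of 10 fractions of a sucrose gradient, F8, F9 and F10, in which mRNAs loaded with several ribosomes sediment. Their counts were added within each of 2 gradients (A and B) per stage, so that 2 morula pools stood against 2 8-cell pools, made from 12 of the 138 samples of the series. Every gene was tested, and 14612 genes with enough counts entered the model. The same stages in whole embryos (3 transcriptomes each, 6 samples) and in the monosome fractions F3 to F5 of the same gradients (12 samples) are set beside the polysome values.

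Both groups were unmodified embryos made in vitro: oocytes of slaughterhouse ovaries were matured, fertilized with frozen semen of one Holstein bull and cultured in BO-IVC medium, and embryos of Grade 1 by morphology were kept. Cycloheximide, which freezes ribosomes on mRNA, was added to both groups shortly before collection, and the zona pellucida was digested with protease. No treatment or genotype separated the groups, which differed in developmental stage. Each gradient held the lysate of many embryos, so a pool is an average over embryos and over all of their blastomeres, and one sire stands behind all of them. The design text calls the gradients biological duplicates. The p-values given here rest on a spread shared over pools and libraries of all 6 stages. In such bulk material fewer cells that use an mRNA and less of that mRNA per cell cannot be told apart.

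A ribosome that reads an mRNA leaves room behind it for the next, so an actively translated mRNA carries several and sediments deep in the gradient, whereas stored, repressed or free mRNA stays near the top. In cattle the embryo's own genome is switched on in earnest around the 8-cell stage. Until then the embryo lives on mRNAs laid down by the oocyte, which are then cleared while embryonic mRNAs take over. In the morula the blastomeres flatten against each other, form junctions and begin to split into outer cells, which give the trophectoderm, and inner cells, which give the embryo proper.

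The 4 pools held 22543737 (8-cell A), 34662218 (8-cell B), 28023793 (morula A) and 39380638 counts (morula B), from single libraries of 6846568 to 13983880. Values are in CPM (counts scaled to a common library size) after TMM scaling, and 3 counts, taken as the floor of detection, are 0.0762 to 0.133 CPM of a pool total. CPM are not corrected for transcript length, so levels are compared between samples and not between genes. The 6 transcriptomes held 8818251 to 10445268 counts. The pools of a stage resembled each other less than in the other 4 stages. Among genes at a mean of 10 CPM or more, gradients A and B differed by a median of 0.74 on the log2 scale at the 8-cell stage and 0.99 in morulae. The same value was 0.28 in GV oocytes, 0.53 in MII oocytes, 0.30 at the 2-cell stage and 0.40 in blastocysts. Across all genes the morula B pool correlated with the 8-cell B pool at r = 0.81, hardly below the 8-cell pools with each other (r = 0.82), and the morula pools with each other at r = 0.87. The morula F9 library of gradient A stood apart: 5714 genes were detected in it, against 7669 to 11609 in the 11 other libraries, and its median correlation with the other morula libraries was 0.66, against 0.80 to 0.84 for theirs. Without it 2520 genes rose and 2629 fell, and of the called genes named below TFCP2, GAR1, MPHOSPH10, FXYD5, DHX38, SREBF1 and GPX7 lost their call. Among the whole-embryo libraries 8-cell transcriptome A stood apart. Its summed mesenchymal markers were 18709 CPM against 3673 and 3318 CPM in transcriptomes B and C, and its cumulus markers 2548 against 477 and 572 CPM. The summed levels of the hypoblast, glycolysis, cholesterol, interferon-stimulated and antioxidant lists in it were 1.75 to 3.27 times the mean of the other 2. Without it 775 genes rose and 750 fell in whole embryos, and the polysome change lay above the transcriptome change for 767 and below it for 593. Of the whole-embryo changes given below, those of TGFB1I1, ACTC1 and CDH1 then did not pass the test, nor did the differences of ENDOU, EEF1B2 and ANLN (adjusted p = 0.0574 to 0.104 in edgeR).

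Between the 8-cell stage and the morula 2700 genes rose in polysomes and 2593 fell, 18.5% and 17.7% of the 14612 tested (edgeR's quasi-likelihood test with Benjamini-Hochberg adjustment, adjusted p under 0.05 and a fold above 2). Both morula pools lay above both 8-cell pools for 2136 of the genes that rose, and both lay below for 1902 of those that fell, against 3188 (21.8%) and 2998 (20.5%) of all genes tested. The pools of the other called genes overlapped between the stages. In whole embryos 964 genes rose and 1133 fell (6.60% and 7.75%), and in monosomes 1193 rose and 1021 fell (8.32% and 7.12% of 14343). These shares come from unequal numbers of libraries, and the monosome and polysome values share gradients. The difference between the polysome and transcriptome changes passed the test upwards for 7.04% and downwards for 5.41% of all genes. Counts of list members below stand against these shares of all genes.

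The number of polysome calls rests on how the spread is estimated. In the model above the 4 pools share one estimate with 26 other pools and transcriptomes. The gradients of the other 4 stages differed by less, as given above. Of the 26, 18 were transcriptomes, and pairs of these within a stage differed by medians of 0.23 to 0.37 on the log2 scale. The compared gradients differed by 0.74 and 0.99. The shared estimate can therefore lie below the spread of the 4 pools, which would make their p-values too small. With the 12 polysome pools of the 6 stages alone, 609 genes rose and 464 fell, all 1073 of them among the calls above and in the same direction. With the 10 libraries of the 2 stages 1243 rose and 881 fell. With the 4 pools alone edgeR called none (smallest adjusted p = 0.154), while 1666 genes had an unadjusted p under 0.05, and no other tool was run on those 4. Scaling by library totals without TMM factors moved the median log2 fold change of all genes from 0.00 to -0.20 and the split to 2047 higher and 3232 lower, so that 38.8% of the calls rose in place of 51.0%. Changes below are given on the TMM scale, relative to that median. Of 168 called genes that were selected by name 88 were also called with the 12 polysome pools alone. Genes with no count in both pools of a stage have no defined fold, and setting them to their bound (3 counts in each pool) moved the medians of 3 gene lists, which are given with both values.

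**Figure D1:**
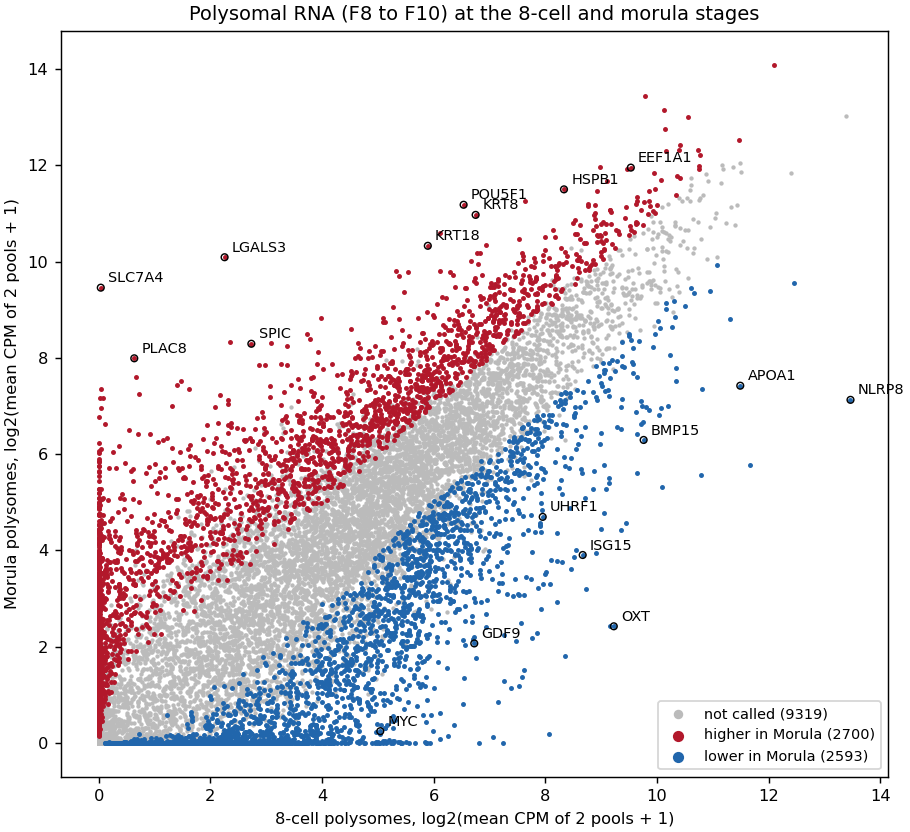
Each point is 1 of 14612 genes, with the mean of the 2 8-cell polysome pools on the x axis and of the 2 morula polysome pools on the y axis, both as log2(CPM + 1). Red points rose (2700), blue points fell (2593) and grey points did not pass the test; the circled genes are described in the text.

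The 10 largest rises among genes with over 3 counts in each pool began with PLAC8 and LGALS3. PLAC8, first described in placenta, stood at 0.246 and 0.868 CPM in the 8-cell pools and 340.4 and 166 CPM in the morula pools (log2 fold change 8.76 ± 0.79 (SE), adjusted p = 5.79e-08). The galectin gene LGALS3 stood at 0.615 and 6.94 CPM in the 8-cell pools and 847 and 1333 CPM in the morula pools (log2 fold change 8.15 ± 0.75 (SE), adjusted p = 6.62e-08). In both genes the lower morula pool was far above the higher 8-cell pool. SPIC, an ETS family transcription factor, had 9.64 and 1.68 CPM in the 8-cell pools and 429 and 197 CPM in the morula pools (log2 fold change 5.80 ± 0.77 (SE), adjusted p = 9.29e-06), with the 8-cell values far below both morula values. All 3 rose in whole embryos too, by 6.62, 5.37 and 5.28 on the log2 scale.

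The other 7 are given as the 8-cell pools A and B against the morula pools A and B. MYOM1, a sarcomere protein gene, stood at 0.205 and 0.705 against 157 and 22.1 CPM, and ADD2, an adducin of the spectrin skeleton, at 0.902 and 1.79 against 139.7 and 18.9 CPM. FCGR2A, an Fc receptor, stood at 0.246 and 0.325 against 11 and 23.9 CPM, and MARK1, a polarity kinase, at 0.369 and 0.136 against 4.87 and 20.1 CPM. ZFYVE21 stood at 0.287 and 6.7 against 170.1 and 129 CPM, PALLD, which binds actin, at 0.287 and 1.55 against 40.2 and 38.6 CPM, and the transcription factor gene TFCP2 at 1.52 and 0.488 against 106 and 2.62 CPM. In all 7 both morula values lay above both 8-cell values. In MYOM1, ADD2 and TFCP2 gradient A of the morula was several times above gradient B, and TFCP2 in B was close to the 8-cell level. Without the F9 library of morula gradient A the log2 fold change of TFCP2 was 0.44 (adjusted p = 0.795), and its rise rested on that library. Of these 10 genes, 8 were also called with the 12 polysome pools alone, and TFCP2 and MARK1 were not.

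A further 804 called genes with a symbol had at most 3 counts in each 8-cell pool. The highest CPM of these in morula polysomes was that of SLC7A4, a member of the cationic amino acid transporter family, with 0 and 0.0542 CPM in the 8-cell pools and 201 and 1204 CPM in the morula pools (adjusted p = 8.01e-06). It was followed by NFE2, a transcription factor known from the blood lineage (142 and 181 CPM in the morula pools), LITAF, an endosomal membrane protein (205 and 81.2 CPM), TARS1, the threonyl-tRNA synthetase (202 and 83.6 CPM), and ATP6V0A4, a subunit of the proton pump (55.2 and 191 CPM). None of these 4 exceeded 0.082 CPM in an 8-cell pool, so their fitted folds depend on the prior count and are not given. All 5 were also called with the 12 polysome pools alone.

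Of the 10 largest falls, that of NLRP8, an oocyte gene of the NLR family, went from 13457 and 9183 CPM in the 8-cell pools to 16.9 and 261 CPM in the morula pools (log2 fold change -6.35 ± 0.80 (SE), adjusted p = 3.68e-06). The morula pools were far below the 8-cell pools but differed from each other, with gradient B above gradient A. OXT, which encodes the oxytocin precursor, stood at 639 and 558 CPM in the 8-cell pools and 0.723 and 7.99 CPM in the morula pools (log2 fold change -7.08 ± 0.97 (SE), adjusted p = 8.99e-06). SUN1, which ties the nuclear envelope to the cytoskeleton, stood at 60.5 and 54.3 CPM in the 8-cell pools and 0.53 and 0.173 CPM in the morula pools (log2 fold change -7.39 ± 1.15 (SE), adjusted p = 3.80e-05). In each of the 3 genes the groups lay wide apart. All 3 fell in monosomes too, scaled apart from the polysome values. NLRP8 stood there at 54980 and 66513 against 389 and 2106 CPM, far above its polysome values (adjusted p = 0.00543). SUN1 stood there at 147 and 233 against 1.19 and 16.7 CPM, and OXT at 29.1 and 104 against 0 and 1.45 CPM. Whole 8-cell embryos held 56.5, 81.6 and 74.6 CPM of NLRP8, which fell by 4.85 on the log2 scale (adjusted p = 1.36e-05).

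Of the other 7, SLC38A8, an amino acid transporter, stood at 49.2 and 61.2 against 0.53 and 0.46 CPM, the zinc finger gene ZNF541 at 13.5 and 47.8 against 0.193 and 0.431 CPM and the laminin gene LAMA2 at 25.3 and 14.7 against 0.241 and 0.259 CPM. TMEM266 stood at 33.9 and 13.1 against 0.241 and 0.345 CPM and the ciliary transport gene IFT88 at 63.7 and 11.3 against 0.337 and 0.604 CPM. The phosphatase gene DUSP13 stood at 11.7 and 24.5 against 0.193 and 0.288 CPM, and CIP2A, an inhibitor of a protein phosphatase, at 70.3 and 32.5 against 0.289 and 1.09 CPM. No morula value in this set exceeded 1.09 CPM. In 8-cell monosomes SLC38A8 (114 and 144 CPM), ZNF541, TMEM266 and DUSP13 stood above their polysome values in both gradients. LAMA2 did so in gradient B only. IFT88 (8.35 and 0.322 CPM) and CIP2A (25.6 and 15.2 CPM) stood below theirs. All 10 were also called with the 12 polysome pools alone. SUN1, SLC38A8, LAMA2, IFT88, DUSP13 and CIP2A fell further in polysomes than in whole embryos (adjusted p of the difference = 0.00706, 0.00262, 0.0197, 4.72e-05, 0.00264 and 8.97e-06). In whole embryos SUN1, SLC38A8, LAMA2 and DUSP13 averaged 2.28, 0.849, 2.19 and 1.98 CPM at the 8-cell stage. In morulae they averaged 0.637, 0.159, 0.588 and 0.689 CPM, so a fall there could be followed less far than in polysomes. IFT88 (27.5 against 21.8 CPM) and CIP2A (94.1 against 35.4 CPM) stood higher. In 8-cell polysomes, however, IFT88 came almost only from F10 in gradient A (186 CPM) and F8 in gradient B (33.6 CPM). Its other fractions held at most 0.236 CPM. CIP2A came only from F10 in gradient A (205 CPM), and mainly from F9 and F10 in gradient B (57.6 and 22.8 CPM). DUSP13 came almost only from F9 in gradient A (29 CPM) and F8 in gradient B (72.1 CPM).

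For 840 called genes with a symbol each morula pool held at most 3 counts. The 5 with the highest CPM at the 8-cell stage, all at 0 counts in both morula pools, were ASB9, NT5E, CLEC14A, NEIL2 and TGFB1I1. Against the floor of 3 counts per pool, ASB9 (145 and 154 CPM in the 8-cell pools) was at least 1297-fold lower in morulae, and NT5E (73.2 and 151 CPM) at least 971-fold lower. CLEC14A (33.4 and 86.7 CPM) was at least 520.3-fold lower. NEIL2 (68.1 and 47.6 CPM) was at least 501-fold lower and TGFB1I1 (66.2 and 48 CPM) at least 495-fold lower. ASB9 is an adaptor of ubiquitin ligases and NEIL2 a DNA repair glycosylase, while NT5E (CD73), CLEC14A (endothelium) and TGFB1I1 (focal adhesions) are better known from stromal and vascular cells. All 5 fell in whole embryos as well, and all 5 were also called with the 12 polysome pools alone. In 8-cell monosomes NEIL2 stood above its polysome values (257 and 293 CPM), and ASB9, NT5E and CLEC14A stood below theirs. TGFB1I1 stood there at 37 and 59 CPM.

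**Figure D2:**
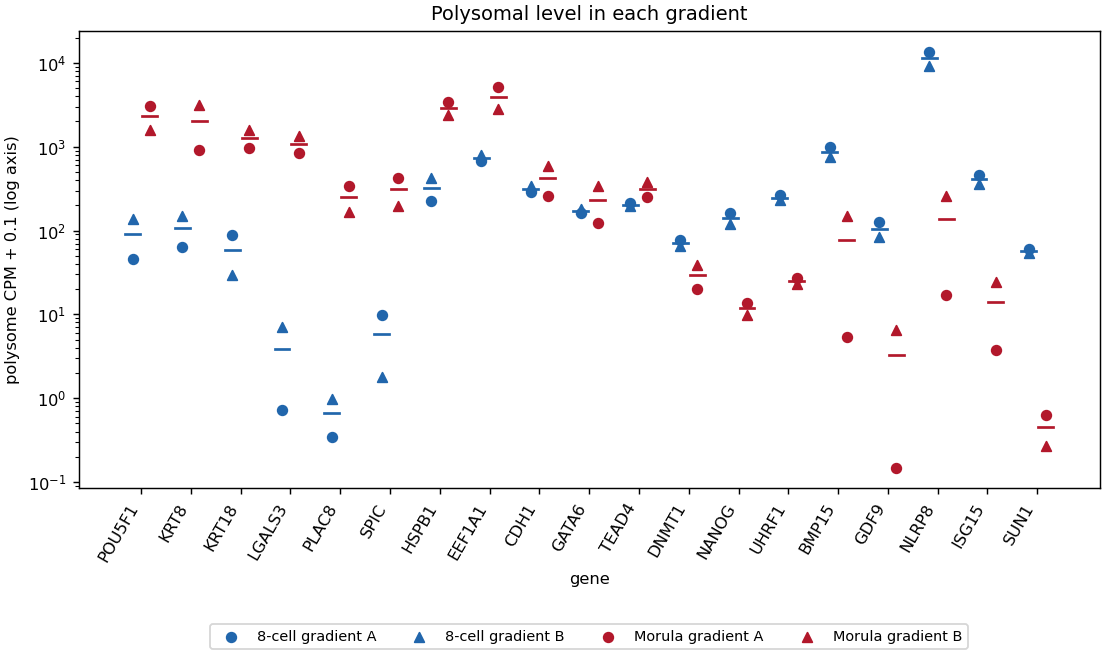
CPM in polysomes (F8 to F10, plus 0.1, log axis) of 19 genes from the groups described in the text, with 1 point per gradient (circle A, triangle B) and a bar at the stage mean. POU5F1, the keratins and LGALS3 sit higher in both morula pools, GDF9, NLRP8, ISG15 and SUN1 sit lower in both, and the pools of CDH1 and GATA6 overlap between the stages.

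Genes of the oocyte fell in polysomes. Of 33 maternal oocyte genes tested (secreted oocyte factors, zona proteins, RNA-binding proteins and maternal effect genes), 23 fell and none rose, with a median log2 fold change of -3.16 against 0.00 over all genes. The falls were 69.7% of the list, against 17.7% of all genes. The oocyte growth factor GDF9 stood at 127 and 82.6 CPM in the 8-cell pools and 0.0482 and 6.33 CPM in the morula pools (log2 fold change -5.00 ± 1.22 (SE), adjusted p = 0.00288). BMP15, its partner, stood at 989 and 746 CPM in the 8-cell pools and 5.25 and 149.7 CPM in the morula pools (log2 fold change -3.48 ± 0.94 (SE), adjusted p = 0.00589). Both were far lower in morula gradient A than in gradient B, where BMP15 still had 149.7 CPM.

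ZP3, a zona pellucida glycoprotein, had 471 and 133 CPM in the 8-cell pools and 46.2 and 30.4 CPM in the morula pools (log2 fold change -2.98 ± 0.48 (SE), adjusted p = 5.91e-05). NLRP5, a member of the subcortical maternal complex, had 99.4 and 129 CPM in the 8-cell pools and 0.0482 and 13.1 CPM in the morula pools (log2 fold change -4.10 ± 1.08 (SE), adjusted p = 0.00509), ZAR1, an RNA-binding protein of the oocyte, fell from 60.3 and 48.4 to 0 and 4.43 CPM (adjusted p = 3.00e-04), and ACCSL from 799 and 796 to 0.241 and 94.6 CPM (adjusted p = 0.00556). UHRF1, which brings the maintenance methyltransferase to newly copied DNA, stood at 264 and 229.9 CPM in the 8-cell pools and 27.1 and 22.7 CPM in the morula pools (log2 fold change -3.31 ± 0.46 (SE), adjusted p = 1.16e-05), and the 2 pools of a stage agreed closely. DNMT1, the methyltransferase itself, stood at 78 and 65.5 CPM in the 8-cell pools and 19.9 and 39 CPM in the morula pools (log2 fold change -1.28 ± 0.36 (SE), adjusted p = 0.00778). In whole embryos its change did not pass the test (adjusted p = 0.783), nor did the difference between its changes (adjusted p = 0.109).

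Of the 23 maternal calls, 13 were also made with the 12 polysome pools alone, and with 1 gradient left out the number ran from 15 (without morula gradient A) to 27 (without morula gradient B). ZAR1, ZP3 and UHRF1 were among the 13, and GDF9, BMP15, NLRP5, ACCSL and DNMT1 were not. In whole embryos 13 of the 33 fell and 1 rose (39.4% and 3.03% against 7.75% and 6.60% of all genes), with a median of -1.63. In monosomes 15 fell (median -2.75). The median of log2(F8 to F10) minus log2(F3 to F5), on log2(CPM + 1), was -1.23 and -1.82 at the 8-cell stage and -1.29 and -2.09 in morulae for 29 of these genes, so that they leaned to the light fractions at both stages.

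Of the factors of pluripotent cells, 5 of 19 rose and 1 fell (26.3% and 5.26% against 18.5% and 17.7% of all genes, median log2 fold change 0.64). POU5F1 (OCT4) stood at 45.4 and 138 CPM in the 8-cell pools and 3060.2 and 1584 CPM in the morula pools (log2 fold change 4.66 ± 0.46 (SE), adjusted p = 1.84e-07), a 25.3-fold rise with the groups well apart. Its mRNA stood at 13, 21.9 and 30.7 CPM in the 8-cell transcriptomes and 431, 389 and 301 CPM in the morula transcriptomes, a change of 4.10 on the log2 scale (adjusted p = 8.09e-08), and the rise in polysomes differed from it by 0.56 (adjusted p = 0.535). TFCP2L1, a factor of naive pluripotency, had 0.615 and 0 CPM in the 8-cell pools and 8 and 29 CPM in the morula pools (log2 fold change 5.92 ± 1.91 (SE), adjusted p = 0.0188).

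NANOG moved the other way, from 161 and 119.5 CPM in the 8-cell pools to 13.7 and 9.69 CPM in the morula pools (log2 fold change -3.58 ± 0.95 (SE), adjusted p = 0.00656), with no overlap. Its change in whole embryos did not pass the test (184 against 56.1 CPM on average, adjusted p = 0.118), nor did the difference between the changes (adjusted p = 0.299). In the fit of the 12 polysome pools alone POU5F1 was the only gene of this list called. The fits that leave out 1 gradient gave 3 (without morula B) to 5 (without 8-cell B) rises and 1 (without 8-cell A) to 2 (without morula A) falls.

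Transcription factors tied to the switching on of the genome moved in both directions: 3 of 16 rose and 3 fell (median -0.04). That is 18.8% each, close to the 18.5% and 17.7% of all genes. OTX2, a homeobox factor, was at 0 and 0.163 CPM in the 8-cell pools and at 78.3 and 118 CPM in the morula pools (adjusted p = 8.47e-05). KLF5, a factor of the early lineages, had 28.1 and 24.7 CPM in the 8-cell pools and 62.4 and 126 CPM in the morula pools (log2 fold change 1.84 ± 0.51 (SE), adjusted p = 0.00686). KLF17 had 392 and 616 CPM in the 8-cell pools and 46.8 and 99.8 CPM in the morula pools (log2 fold change -2.78 ± 0.82 (SE), adjusted p = 0.011). MYC, a driver of growth genes, stood at 23.5 and 40.5 CPM in the 8-cell pools and 0.0482 and 0.316 CPM in the morula pools (log2 fold change -7.34 ± 1.5 (SE), adjusted p = 7.07e-04). The groups did not overlap for any of these 4. KLF4 stood at 74.7 and 154 against 109.9 and 97.7 CPM and did not pass the test (adjusted p = 0.952). OTX2 and MYC, and no other gene of the list, were also called with the 12 polysome pools alone. Over the fits without 1 gradient there were 2 (without morula B) to 7 (without 8-cell B) rises and 1 (without morula A) to 4 (without 8-cell A) falls.

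Genes of the trophectoderm, the outer epithelium that founds the placenta, rose in polysomes more often than they fell: 10 of 25 rose and 2 fell, 40% against 18.5% of all genes for the rise, with a median of 0.77. KRT8, a keratin of simple epithelia, stood at 62.7 and 151 CPM in the 8-cell pools and 910.4 and 3104 CPM in the morula pools (log2 fold change 4.23 ± 0.62 (SE), adjusted p = 2.09e-05). KRT18, its filament partner, stood at 87.7 and 29.4 CPM in the 8-cell pools and 969 and 1602 CPM in the morula pools (log2 fold change 4.46 ± 0.76 (SE), adjusted p = 1.62e-04). No pool of one stage reached those of the other in either gene.

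In whole embryos KRT8 stood at 115, 55.1 and 62 CPM in the 8-cell transcriptomes and 109, 143 and 25.6 CPM in the morula transcriptomes (log2 fold change 0.26, adjusted p = 0.755), and its rise in polysomes exceeded that change by 3.97 ± 0.73 (SE) on the log2 scale (adjusted p = 9.46e-04). KRT18 stood at 7.54, 11.3 and 4.35 CPM in the 8-cell transcriptomes and 88.1, 129 and 26.7 CPM in the morula transcriptomes (log2 fold change 3.39, adjusted p = 5.64e-04), and its difference of 1.06 did not pass the test (adjusted p = 0.473).

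Among the regulators, GATA3 stood at 1.19 and 2.6 CPM in the 8-cell pools and 5.64 and 31.5 CPM in the morula pools (log2 fold change 3.28 ± 0.60 (SE), adjusted p = 2.34e-04), with gradient B of the morula above gradient A. GRHL1, an epithelial factor, was at 0 and 0.0271 CPM in the 8-cell pools and at 1.25 and 37.8 CPM in the morula pools (adjusted p = 1.67e-04). MSX2 stood at 0 and 4.15 against 35.5 and 70.2 CPM (adjusted p = 0.00175). CDX2, the factor that defines the trophectoderm, stood at 19.6 and 7.94 CPM in the 8-cell pools and 8.39 and 38.7 CPM in the morula pools and did not pass the test in polysomes (adjusted p = 0.415), and its pools overlap. In whole embryos it rose by 2.37 on the log2 scale (adjusted p = 0.0141; adjusted p of the difference = 0.291). When the 12 polysome pools were fitted alone, 3 rose (KRT8, KRT18 and GRHL1) and 1 fell. In whole embryos 11 of the 25 rose and 0 fell, 44% higher against 6.60% of all genes. With 1 gradient left out 7 (without morula gradient B) to 11 (without morula gradient A) rose.

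Hypoblast and FGF signalling genes, which mark and induce the inner epithelium of the later blastocyst, were split, with 5 of 20 higher and 3 lower (median 0.97). The shares were 25% and 15%, against 18.5% and 17.7% of all genes. FGFR3, a receptor, was at 0 and 0.0271 CPM in the 8-cell pools and at 14.7 and 26.8 CPM in the morula pools (adjusted p = 7.57e-06), and it was the only gene of the list called with the 12 polysome pools alone. RSPO3, a secreted activator of WNT signalling, had 0.123 and 1.55 against 34.3 and 15 CPM (adjusted p = 3.91e-04). The apolipoprotein gene APOA1 had 1489 and 4270.4 CPM in the 8-cell pools and 4.1 and 337 CPM in the morula pools (log2 fold change -4.08 ± 1.25 (SE), adjusted p = 0.0136), with no overlap and with morula gradient B above gradient A. GATA4 had 52.3 and 0.705 against 2.22 and 0.316 CPM (adjusted p = 0.0157), and it was high in 8-cell gradient A only: without that gradient its log2 fold change was 0.82. GATA6 (163 and 182 against 124 and 336 CPM, adjusted p = 0.688) and the ligand FGF4 (0 and 0.976 against 6.65 and 6.79 CPM, adjusted p = 0.119) did not pass the test. When each gradient was left out in turn, there were 2 (without 8-cell A) to 5 (without morula B) falls. Scaled without TMM, 5 rose and 5 fell.

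In the Hippo pathway, whose kinases keep the coactivator YAP1 out of the nucleus of inner cells, 3 of 20 genes rose and 3 fell (median 0.36, and 0.00 without TMM). That is 15% each, against 18.5% and 17.7% of all genes. The paired kinases LATS1 and LATS2 moved apart. LATS1 was at 0 and 0.244 CPM in the 8-cell pools and at 31.5 and 8.48 CPM in the morula pools (log2 fold change 7.16 ± 0.91 (SE), adjusted p = 3.91e-06). In morulae it came almost only from F8 in gradient A (67.2 CPM) and from F10 in gradient B (21.2 CPM). F9 and F10 of gradient A and F8 of gradient B held 0 CPM. LATS2 had 90.6 and 99.9 CPM in the 8-cell pools and 1.83 and 13.8 CPM in the morula pools (log2 fold change -3.60 ± 0.72 (SE), adjusted p = 5.49e-04). In whole embryos LATS1 stood at 18.3, 16.1 and 20.4 CPM in the 8-cell transcriptomes and 23.1, 20.2 and 24.2 CPM in the morula transcriptomes (adjusted p = 0.777), and its polysome change exceeded that by 6.86 (adjusted p = 9.72e-05).

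VGLL4, which competes with YAP1 for the TEAD factors, had 494 and 298 CPM in the 8-cell pools and 46.6 and 54.9 CPM in the morula pools (log2 fold change -2.96 ± 0.45 (SE), adjusted p = 3.28e-05). AMOTL1, an angiomotin, had 1.31 and 34.8 against 1.35 and 4.26 CPM (adjusted p = 0.0147), and this call rested on 8-cell gradient B: without it the log2 fold change was 1.10. TEAD4 (211 and 195 against 254 and 377 CPM, adjusted p = 0.63) and YAP1 (2.54 and 6.75 against 28.5 and 6.61 CPM, adjusted p = 0.0839) did not pass the test. LATS1, LATS2 and VGLL4 were also called with the 12 polysome pools alone. No gene of this list was called in whole embryos at an adjusted p under 0.05 and a fold above 2. Dropping single gradients gave 2 (without 8-cell A) to 7 (without 8-cell B) rises and 2 (without morula A) to 5 (without 8-cell A) falls.

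Compaction needs adherens and tight junctions, desmosomes and the polarity kinases that place them. Of 47 such genes, 21 rose in polysomes and 4 fell (median log2 fold change 1.09), 44.7% and 8.51% against 18.5% and 17.7% of all genes. In whole embryos 20 rose and 1 fell (median 1.19), 42.6% and 2.13% against 6.60% and 7.75% of all genes. The summed level of the list was 3612 and 3753 CPM in the 8-cell pools and 6838 and 22700.4 CPM in the morula pools, so that morula gradient B held far more than gradient A. The polarity kinase gene PRKCI had no count in either 8-cell pool and 37.6 and 80.3 CPM in the morula pools (adjusted p = 2.15e-11). Whole embryos held 17.1, 11.9 and 19 CPM in the 8-cell transcriptomes and 124, 151 and 161 CPM in the morula transcriptomes (adjusted p of the difference between the changes = 2.05e-08).

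PKP3, a desmosomal plaque protein, was likewise at 0 in both 8-cell pools and at 49.8 and 46.5 CPM in morulae (adjusted p = 2.74e-05). SPINT1, a protease inhibitor of epithelia, stood at 0 against 3.28 and 32.9 CPM (adjusted p = 0.00118). CDH1 (E-cadherin), the adhesion molecule of compaction, stood at 286 and 342 CPM in the 8-cell pools and 260.5 and 581 CPM in the morula pools and did not pass the test (log2 fold change 0.42 ± 0.41 (SE), adjusted p = 0.455), its pools overlapping. Its mRNA rose in whole embryos by 1.18 (adjusted p = 0.0198; adjusted p of the difference = 0.389). GJA1, a gap junction protein, had 0 and 20.9 against 0 and 0.316 CPM (adjusted p = 0.00299), a fall that rested on 8-cell gradient B. Of the 21 genes that rose, 11 were also called with the 12 polysome pools alone, PRKCI, PKP3 and SPINT1 among them. With 1 gradient left out the number ran from 18 (without morula gradient B) to 24 (without 8-cell gradient B), and that of genes that fell from 2 (without morula gradient A) to 10 (without morula gradient B).

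The pumps and channels that later fill the blastocoel were split: 3 of 17 rose and 4 fell (median -0.61, and 0.00 with genes at 0 set to their bound). The shares were 17.6% and 23.5%, against 18.5% and 17.7% of all genes. FXYD4, a pump regulator, stood at 11.2 and 7.16 against 94.2 and 79.6 CPM (adjusted p = 0.00229). The falls included the ion cotransporter SLC12A2 (45.6 and 25.3 against 1.01 and 8.71 CPM, adjusted p = 0.00386), AQP11 (477 and 288 against 16.4 and 130.1 CPM, adjusted p = 0.0151) and FXYD5 (26.1 and 15.7 against 2.84 and 1.52 CPM, adjusted p = 0.0395). The water channel AQP3 (223 and 261 against 244 and 530.3 CPM, adjusted p = 0.278) and the pump subunit ATP1B1 (0 and 17.9 against 3.23 and 8.94 CPM, adjusted p = 0.75) did not pass the test, and ATP1B1 had no count in 8-cell gradient A. Leaving out 1 gradient gave 3 (without 8-cell A) to 6 (without 8-cell B) rises and 2 (without 8-cell A) to 4 (without 8-cell B) falls. With the 12 polysome pools alone 2 rose, FXYD4 among them, and 0 fell. In whole embryos 3 rose and 4 fell (17.6% and 23.5% against 6.60% and 7.75% of all genes), and 3 and 2 without 8-cell transcriptome A.

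**Figure D3:**
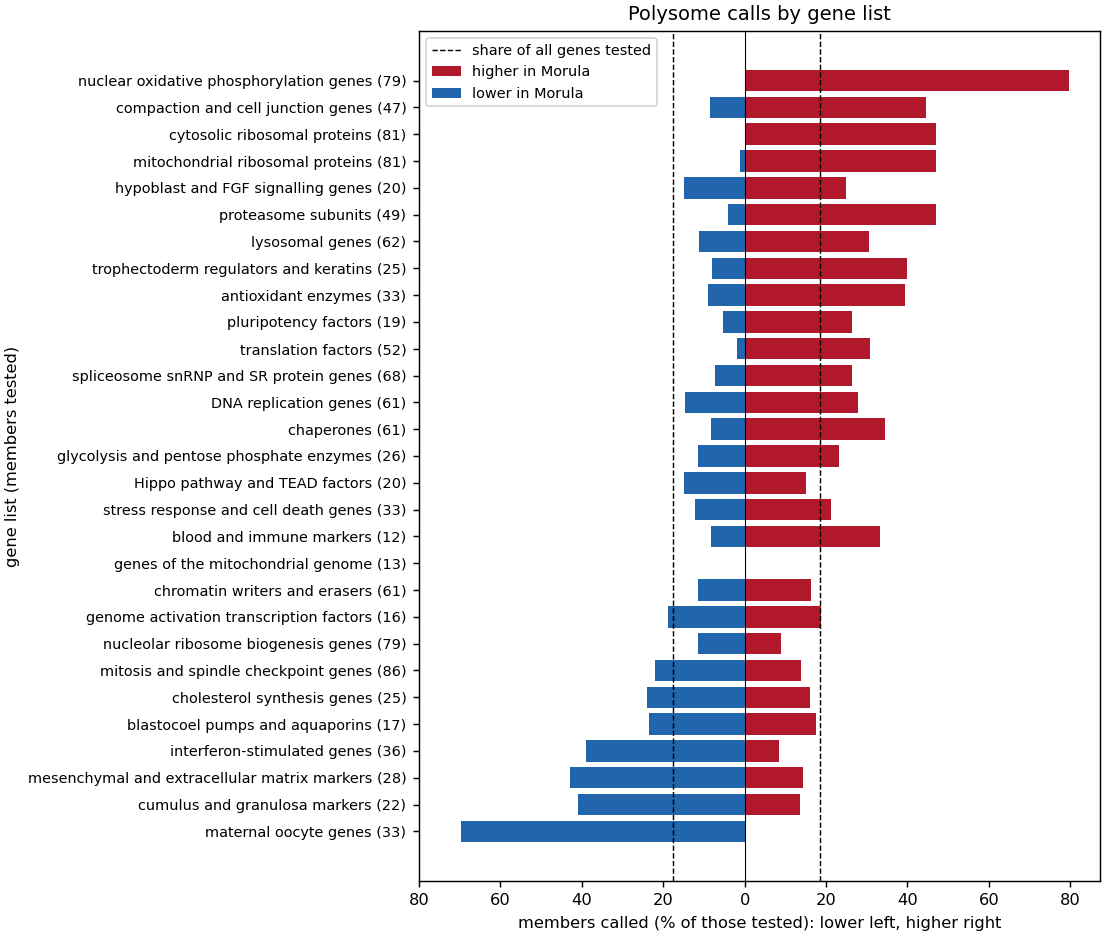
For each gene list, the share of its tested members (number in brackets) that rose in morula polysomes is drawn to the right and the share that fell to the left, ordered by the list's median fold change; dashed lines give the shares over all genes tested (18.5% higher, 17.7% lower). Nuclear oxidative phosphorylation genes stand furthest right and maternal oocyte genes furthest left.

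Nuclear genes of oxidative phosphorylation, which encode the respiratory chain and the ATP synthase, had the highest share of rises of the lists examined: 63 of 79 rose and none fell, with a median log2 fold change of 1.85. The rises were 79.7% of the list, against 18.5% of all genes. Both morula pools lay above both 8-cell pools for 64 of the 79, against 21.8% of all genes. Summed over the list, the 8-cell pools held 25857 and 25076 CPM and the morula pools 107304 and 58715 CPM. NDUFA10, a subunit of complex I, stood at 80.2 and 110.2 CPM in the 8-cell pools and 642 and 757 CPM in the morula pools (log2 fold change 2.88 ± 0.40 (SE), adjusted p = 1.09e-05). NDUFV2 stood at 23.1 and 35.1 against 255 and 142 CPM (adjusted p = 8.88e-06). NDUFB7 stood at 104 and 106 against 1158 and 391 CPM (adjusted p = 6.24e-04). UQCRH of complex III was high in morula gradient A only (22 and 42.3 against 518 and 47 CPM, adjusted p = 5.66e-04).

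With the 12 polysome pools alone 35 of these genes were called, all those named above except UQCRH among them, and with 1 gradient left out 38 (without morula gradient A) to 72 (without morula gradient B), with medians of 1.12 and 2.37 in those 2 cases. Scaled without TMM, 52 rose. In whole embryos 32 rose (40.5% against 6.60% of all genes, median 1.0), and 6 of 79 rose further in polysomes than there (7.59%, against 7.04% of all genes). In monosomes 61 of 79 rose, with a median of 3.04. The median of polysome minus monosome level within a gradient was 1.68 and 1.86 at the 8-cell stage and 0.64 and 0.42 in morulae, so that the lean of these mRNAs to heavy fractions was smaller in both morula gradients while their level was higher in both parts of the gradient.

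Of the 13 protein genes of the mitochondrial genome, whose mRNAs are read by ribosomes inside the organelle, none was called in polysomes by edgeR (median log2 fold change 0.14, and -0.33 without TMM). Their summed level was 14568, 11070.4, 23956 and 6868 CPM in 8-cell A, 8-cell B, morula A and morula B: morula gradient A lay above all other pools while gradient B lay below them. In monosomes 9 rose (median 2.66), and the polysome minus monosome median went from 0.35 and 1.08 to -2.23 and -2.36.

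Genes of the cytosolic ribosome rose in 38 of 81 cases with none lower (median 1.06), 46.9% higher against 18.5% of all genes. The number rested on morula gradient A. The summed level was 55819 and 60000.3 CPM in the 8-cell pools, 172730.0 CPM in morula A and 65058 CPM in morula B. Without it 5 genes were called, with a median of -0.07, and without gradient B 72, with a median of 1.66. RPS4X stood at 38.4 and 234 against 1137 and 354 CPM (adjusted p = 0.00134), while RPL23A, at 65 and 59.1 against 451 and 67.1 CPM (adjusted p = 0.00421), was as low in morula B as at the 8-cell stage. RPS3A had 189 and 318 against 1903 and 507 CPM (adjusted p = 0.00497). Ribosomal protein genes have many processed copies in the genome, so reads could be split between a gene and its copies.

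With the 12 polysome pools alone 5 ribosomal protein genes were called, with RPS4X, RPL23A and RPS3A not among them, and without the F9 library of morula gradient A 29. Scaled without TMM, 15 rose. Whole embryos gave 2 rises (2.47% against 6.60% of all genes, median 0.51). The monosome fractions gave 62 rises of 81 with a median of 2.67. The polysome minus monosome median was 1.65 and 2.20 at the 8-cell stage and 0.35 and -0.15 in morulae, and the 2 stages did not overlap in it.

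Of the proteins of the mitochondrial ribosome, 38 of 81 rose and 1 fell (median 1.0), 46.9% and 1.23% against 18.5% and 17.7% of all genes. Both morula pools lay above both 8-cell pools for 49 of the 81, against 21.8% of all genes. MRPL54 stood at 90.8 and 96 CPM in the 8-cell pools and 918 and 477 CPM in the morula pools (log2 fold change 2.90 ± 0.35 (SE), adjusted p = 2.12e-06). MRPS18A stood at 137 and 121 CPM in the 8-cell pools and 844 and 654 CPM in the morula pools (log2 fold change 2.54 ± 0.26 (SE), adjusted p = 2.45e-07). MRPL35 (10.9 and 18.2 against 193 and 51.4 CPM, adjusted p = 1.47e-05) and MRPS28 (18.3 and 13.6 against 156 and 54.8 CPM, adjusted p = 6.44e-05) rose further in polysomes than in whole embryos (adjusted p of the difference = 0.00269 and 0.0245). These 4 were among the 10 genes of the list also called with the 12 polysome pools alone. Without TMM the list had 23 rises and 2 falls (median 0.56). With 1 gradient left out 17 (without morula gradient A) to 44 (without morula gradient B) rose.

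Translation factors rose in 16 of 52 cases and fell in 1 (median 0.57), 30.8% and 1.92% against 18.5% and 17.7% of all genes. EEF1A1, which brings aminoacyl-tRNA to the ribosome, stood at 677 and 802 CPM in the 8-cell pools and 5116 and 2816 CPM in the morula pools (log2 fold change 2.42 ± 0.31 (SE), adjusted p = 4.89e-06). EEF1B2, its exchange factor, stood at 46.2 and 78.6 CPM in the 8-cell pools and 647 and 301 CPM in the morula pools (log2 fold change 2.92 ± 0.41 (SE), adjusted p = 1.31e-05). Both rose in whole embryos, and further in polysomes (adjusted p of the difference = 0.0171 and 0.0356). The cap-complex scaffold EIF4G3 had 0.41 and 4.09 against 35.3 and 10.6 CPM (adjusted p = 7.42e-04) and the eIF4E-binding protein EIF4EBP2 0 and 9.49 against 77.3 and 53.4 CPM (adjusted p = 0.0289). Scaled without TMM, 10 rose and 4 fell. In the fit of the 12 polysome pools alone 5 rose, EEF1A1 and EEF1B2 among them, and 1 fell, and 10 (without morula gradient A) to 21 (without morula gradient B) rose with 1 gradient left out.

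Of 79 nucleolar ribosome biogenesis genes 7 rose (8.86%) and 9 fell (11.4%), against 18.5% and 17.7% of all genes, with a median of -0.17. Scaled without TMM, 6 rose and 20 fell, with a median of -0.60. GAR1, of the H/ACA particle (0.533 and 0.759 against 24.6 and 1.58 CPM, adjusted p = 9.44e-04), and MPHOSPH10 (0 and 8.16 against 66.5 and 4.54 CPM, adjusted p = 0.0229) were high in morula gradient A and near the 8-cell level in gradient B. SURF6 (0.041 and 5.26 against 29.9 and 12.1 CPM, adjusted p = 0.0257) and POLR1A, the large subunit of RNA polymerase I (3.36 and 3.85 against 22.2 and 16.9 CPM, adjusted p = 3.09e-04), were higher in both gradients. GAR1 and MPHOSPH10 lost their calls without the F9 library of morula gradient A, and none of the 4 was called with the 12 polysome pools alone, where 1 gene of the list rose and 1 fell. The fits that leave out 1 gradient gave 3 (without morula A) to 15 (without 8-cell B) rises and 9 (without morula A) to 17 (without morula B) falls.

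Proteasome subunits rose in 23 of 49 cases and fell in 2 (median 0.94), 46.9% and 4.08% against 18.5% and 17.7% of all genes. Both morula pools lay above both 8-cell pools for 34 of the 49, against 21.8% of all genes. PSMC4, an ATPase of the regulatory cap, stood at 40.4 and 175 CPM in the 8-cell pools and 678 and 826 CPM in the morula pools (log2 fold change 2.80 ± 0.50 (SE), adjusted p = 1.90e-04). PSME3, an activator, stood at 10.7 and 25.8 against 292 and 104 CPM (adjusted p = 1.14e-05). PSME4, another activator, stood at 0.041 and 2.41 against 19.8 and 8.89 CPM (adjusted p = 0.00122). PSMB10, a subunit of the immunoproteasome, fell (17 and 23 against 0.193 and 2.73 CPM, adjusted p = 0.0217). In whole embryos 4 rose and 3 fell (8.16% and 6.12% against 6.60% and 7.75% of all genes), and 5 and 0 without 8-cell transcriptome A. Without TMM the list had 15 rises in polysomes and 3 falls. When the 12 polysome pools were fitted alone, 13 rose, PSMC4 and PSME3 among them, and with 1 gradient left out 17 (without morula gradient A) to 29 (without morula gradient B).

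Among chaperones 21 of 61 rose and 5 fell (median 0.56), 34.4% and 8.20% against 18.5% and 17.7% of all genes. The small heat shock protein HSPB1 stood at 226 and 418 CPM in the 8-cell pools and 3437 and 2361 CPM in the morula pools (log2 fold change 3.17 ± 0.41 (SE), adjusted p = 5.34e-06). HSPD1, the chaperonin of mitochondria, stood at 12.4 and 25.6 CPM in the 8-cell pools and 135 and 196 CPM in the morula pools (log2 fold change 3.12 ± 0.35 (SE), adjusted p = 1.04e-06). The groups did not overlap for these 2, which rose further in polysomes than in whole embryos (adjusted p of the difference = 0.00955 and 0.0129) and were also called with the 12 polysome pools alone. PFDN4, a prefoldin subunit (0.164 and 1.79 against 33.4 and 6.87 CPM, adjusted p = 2.13e-04), and DNAJC19, a cochaperone of mitochondrial import (0 and 11.5 against 106 and 47.1 CPM, adjusted p = 0.00405), were not. In that model 7 chaperone genes rose and 3 fell. With 1 gradient left out 15 (without morula gradient A) to 29 (without 8-cell gradient B) rose.

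Spliceosome genes rose in 18 of 68 cases and fell in 5 (median 0.57), of which 2 and 1 were also called with the 12 polysome pools alone. The shares were 26.5% and 7.35%, against 18.5% and 17.7% of all genes. The ring proteins LSM5 (11.6 and 8.78 against 119.6 and 15 CPM, adjusted p = 0.00229), LSM6 (2.62 and 8.78 against 53 and 15.1 CPM, adjusted p = 0.00169) and LSM8 (27.4 and 29.8 against 214 and 46.9 CPM, adjusted p = 0.00236) were highest in morula gradient A. The helicase DHX38 had 0 and 12.8 against 42.2 and 29.6 CPM (adjusted p = 0.0496). Without morula gradient A the number that rose was 6, without gradient B 31. Without the F9 library of gradient A 11 rose and 5 fell, and without TMM 11 rose and 9 fell. None of the 4 genes named was called with the 12 pools alone.

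In DNA replication 17 of 61 genes rose and 9 fell (27.9% and 14.8% against 18.5% and 17.7% of all genes, median 0.57). GINS1, of the replicative helicase, stood at 132 and 60.8 CPM in the 8-cell pools and 682 and 492 CPM in the morula pools (log2 fold change 2.61 ± 0.32 (SE), adjusted p = 2.74e-06). RFC2, of the clamp loader, stood at 39.5 and 27.7 against 369.5 and 90.2 CPM (adjusted p = 1.84e-04). MCM4, another helicase subunit, stood at 52.7 and 82.3 against 151 and 164 CPM (adjusted p = 0.00318), and its fold was under 2 without TMM. The replisome gene WDHD1 (128 and 27.8 against 8.58 and 8.45 CPM, adjusted p = 2.77e-05) and the topoisomerase gene TOP1 (36.5 and 25.5 against 3.18 and 7.3 CPM, adjusted p = 1.02e-05) fell, and both fell further in polysomes than in whole embryos (adjusted p of the difference = 0.00995 and 0.0018). Scaled without TMM, 11 rose and 12 fell. With the 12 polysome pools alone 6 rose, GINS1 and RFC2 among them, and WDHD1 was the 1 that fell. With 1 gradient left out the number that rose ran from 13 (without 8-cell gradient A) to 25 (without 8-cell gradient B).

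Mitosis and spindle checkpoint genes fell in 19 of 86 cases and rose in 12 (22.1% and 14% against 17.7% and 18.5% of all genes), with a median of -0.26. Scaled without TMM, 28 fell and 6 rose (median -0.67), and with the 12 polysome pools alone 7 fell and 2 rose. CCNB3, a B-type cyclin, stood at 45.6 and 48.1 CPM in the 8-cell pools and 4.34 and 3.13 CPM in the morula pools (log2 fold change -3.65 ± 0.49 (SE), adjusted p = 6.68e-06). ANLN, which builds the cleavage furrow, had 183 and 116 against 13.2 and 17.8 CPM (adjusted p = 3.17e-05), and the kinesin gene KIF20B 99.9 and 34.4 against 9.35 and 5.64 CPM (adjusted p = 1.32e-05). These 3 fell further in polysomes than in whole embryos (adjusted p of the difference = 0.0035, 0.04 and 0.00169) and were also called with the 12 polysome pools alone. CDC16, of the anaphase promoting complex, rose (4.14 and 18.5 against 70.7 and 90.4 CPM, adjusted p = 8.58e-05). In whole embryos 3 rose and 4 fell of the 86 (3.49% and 4.65% against 6.60% and 7.75% of all genes). For 8 the polysome change lay below the transcriptome change and for 1 above it (9.30% and 1.16% against 5.41% and 7.04% of all genes). Without 8-cell transcriptome A these numbers were 5 and 1, against 593 and 767 of all 14570 genes. Over the fits without 1 gradient there were 6 (without morula A) to 21 (without 8-cell B) rises.

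Of 26 glycolysis and pentose phosphate enzymes, 6 rose and 3 fell in polysomes (median 0.37, and -0.01 without TMM), in whole embryos 3 rose and 8 fell, and for 9 the polysome change lay above the transcriptome change and for 1 below it (background 7.04% and 5.41% of all genes). The polysome shares were 23.1% and 11.5%, against 18.5% and 17.7% of all genes. In whole embryos they were 11.5% and 30.8%, against 6.60% and 7.75%. The summed whole-embryo level of the list was 19244 CPM in 8-cell transcriptome A against 7894 and 9500 CPM in B and C. Without that library 3 rose and 5 fell in whole embryos, and the polysome change lay above for 8 and below for 1. Scaled without TMM, 5 rose and 6 fell in polysomes. In the fit of the 12 polysome pools alone 3 rose and 1 fell. PGAM1 stood at 403 and 468 CPM in the 8-cell pools and 2339 and 2193 CPM in the morula pools (log2 fold change 2.38 ± 0.33 (SE), adjusted p = 1.06e-05). Whole embryos held 601, 289 and 365 CPM in the 8-cell transcriptomes and 661, 547 and 568 CPM in the morula transcriptomes (adjusted p = 0.204; adjusted p of the difference = 0.0038). TPI1 fell in both, from 640.4 and 936 to 164 and 69.4 CPM in polysomes (log2 fold change -2.76 ± 0.56 (SE), adjusted p = 6.62e-04) and by 6.74 on the log2 scale in whole embryos (adjusted p = 3.43e-08), a smaller fall in polysomes (adjusted p of the difference = 8.02e-04). LDHB (191 and 156 against 1234 and 529 CPM, adjusted p = 1.92e-04) and the lactate carrier SLC16A1 (22.1 and 98.2 against 178 and 447 CPM, adjusted p = 3.46e-04) rose. Of these 4 enzymes and carriers, PGAM1, TPI1 and LDHB were also called with the 12 pools alone and SLC16A1 was not. When each gradient was left out in turn, there were 1 (without 8-cell B) to 7 (without morula B) falls.

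Cholesterol synthesis genes fell in whole embryos in 16 of 25 cases (median -2.08) with 1 higher, but in polysomes 6 fell and 4 rose (median -0.49), and for 6 the polysome change lay above the transcriptome change. The whole-embryo falls were 64% of the list, against 7.75% of all genes, and the differences upwards 24%, against 7.04%. The polysome shares were 24% lower and 16% higher, against 17.7% and 18.5% of all genes. The 4 polysome rises became 1 without the F9 library of morula gradient A, 1 without TMM and 0 with the 12 polysome pools alone. In whole embryos the summed level was 6544 CPM in 8-cell transcriptome A against 3342 and 3201 CPM in B and C. Without that library 9 fell there and the polysome change lay above for 4. TM7SF2, a sterol reductase, stood at 235 and 225 CPM in the 8-cell pools and 7.37 and 0.374 CPM in the morula pools (log2 fold change -5.91 ± 1.09 (SE), adjusted p = 2.44e-04) and was the 1 fall also called with the 12 polysome pools alone. INSIG1, which holds back the SREBP factors (125 and 108 against 0.0482 and 24.6 CPM, adjusted p = 0.0139), and IDI1 (45.1 and 30.7 against 0.289 and 14.3 CPM, adjusted p = 0.0216) fell with morula gradient B well above gradient A, and SREBF1 rose (10.3 and 23.2 against 61.8 and 48.3 CPM, adjusted p = 0.0465). Without morula gradient B 14 fell, without gradient A 3.

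Lysosomal genes rose in 19 of 62 cases and fell in 7 (median 0.79), 30.6% and 11.3% against 18.5% and 17.7% of all genes. The summed level, 8237 and 9167 CPM at the 8-cell stage, was 11461 CPM in morula A and 21344 CPM in morula B, and without morula gradient B 9 rose and 18 fell. Scaled without TMM, 11 rose and 8 fell, and with the 12 polysome pools alone 5 rose, PPT1 among them, and 1 fell. PPT1, a thioesterase, was at 0 and 0.569 CPM in the 8-cell pools and at 39.5 and 103 CPM in the morula pools (log2 fold change 7.83 ± 0.89 (SE), adjusted p = 1.04e-06), although whole embryos of both stages held it (86.2, 33.8 and 30.4 CPM in the 8-cell transcriptomes and 76.1, 72.2 and 89.3 CPM in the morula transcriptomes, adjusted p of the difference = 3.91e-05). CTSK, a collagen-cleaving protease (37.1 and 4.91 against 0 and 0 CPM, adjusted p = 8.70e-06), and IDUA (0 and 20.8 against 0 and 0 CPM, adjusted p = 0.00567) had no count in morula pools. IDUA was seen in 8-cell gradient B alone, and neither gene was called with the 12 pools alone.

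Antioxidant enzymes rose in 13 of 33 cases and fell in 3 (median 0.71), and 10 of the rises were also called with the 12 polysome pools alone. The shares were 39.4% and 9.09%, against 18.5% and 17.7% of all genes. In whole embryos 3 rose and 4 fell (9.09% and 12.1% against 6.60% and 7.75% of all genes). For 8 the polysome change lay above the transcriptome change (24.2% against 7.04% of all genes), and for 5 without 8-cell transcriptome A. Scaled without TMM, 11 rose and 6 fell in polysomes. GLRX, a glutaredoxin, stood at 93.2 and 43.5 CPM in the 8-cell pools and 1264 and 514 CPM in the morula pools (log2 fold change 3.70 ± 0.39 (SE), adjusted p = 4.67e-07). GSTP1, a glutathione transferase, stood at 101 and 131 CPM in the 8-cell pools and 766 and 914 CPM in the morula pools (log2 fold change 2.86 ± 0.48 (SE), adjusted p = 8.54e-05). TXN (thioredoxin) stood at 41.2 and 44.8 against 538 and 91.6 CPM (adjusted p = 1.14e-04). The groups did not overlap in these 3. GPX7 fell (10.3 and 12.7 against 1.98 and 0.0288 CPM, adjusted p = 0.0483). With 1 gradient left out the number that rose stayed at 12 (without morula gradient A) to 15 (without morula gradient B).

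Of the chromatin writers and erasers (median 0.03, and -0.33 without TMM), 10 of 61 rose (16.4%) and 7 fell (11.5%), against 18.5% and 17.7% of all genes. The de novo methyltransferases moved apart. DNMT3A had 15.2 and 4.26 CPM in the 8-cell pools and 36.5 and 106 CPM in the morula pools (log2 fold change 2.88 ± 0.63 (SE), adjusted p = 0.00127) and rose in whole embryos too (adjusted p = 1.37e-04). DNMT3B had 106 and 43.3 CPM in the 8-cell pools and 1.83 and 16.5 CPM in the morula pools (log2 fold change -3.01 ± 0.75 (SE), adjusted p = 0.0035), a change below that in whole embryos (adjusted p of the difference = 0.0109). KDM6A, a histone demethylase (0.451 and 1.41 against 2.99 and 34.7 CPM, adjusted p = 0.00224), and KAT2B, an acetyltransferase (0 and 2.17 against 10.6 and 14.1 CPM, adjusted p = 0.0367), rose. None of these 4 was called with the 12 polysome pools alone, where 0 rose and 1 fell. Scaled without TMM, 6 rose and 12 fell. Dropping single gradients gave 7 (without morula B) to 22 (without 8-cell B) rises and 5 (without 8-cell A) to 15 (without morula B) falls.

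Interferon-stimulated genes fell in 14 of 36 cases and rose in 3 (median -1.17, and -0.95 with genes at 0 set to their bound). The shares were 38.9% and 8.33%, against 17.7% and 18.5% of all genes. The summed level of the list was 5184 and 4886 CPM in the 8-cell pools and 783 and 1235 CPM in the morula pools. ISG15, a ubiquitin-like modifier, stood at 459 and 354 CPM in the 8-cell pools and 3.66 and 24.3 CPM in the morula pools (log2 fold change -4.86 ± 1.14 (SE), adjusted p = 0.00232). IFI27 stood at 1901 and 1643 CPM in the 8-cell pools and 0 and 93.3 CPM in the morula pools (log2 fold change -5.24 ± 1.63 (SE), adjusted p = 0.0144). IFI6 stood at 487 and 470.1 against 0.867 and 27.9 CPM (adjusted p = 0.00959). OAS1Y, which senses double-stranded RNA, had 61.6 and 53.7 against 0 and 1.73 CPM (adjusted p = 0.0023). IFIT1 stood at 20 and 8.49 against 0 and 0 CPM (adjusted p = 0.00106). All 5 were lower in both morula pools, and morula gradient B kept more than gradient A in each except IFIT1, which had no count in either.

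In whole embryos 22 of these 36 fell and 0 rose, with a median of -3.75 (61.1% lower, against 7.75% of all genes). Of the 14 falls in polysomes, 3 were also called with the 12 polysome pools alone, ISG15 among them. Without 8-cell transcriptome A 16 fell in whole embryos.

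Stress response and cell death genes rose in 7 of 33 cases and fell in 4 (median 0.30, and 0.00 without TMM). The shares were 21.2% and 12.1%, against 18.5% and 17.7% of all genes. TRIB3, a target of the integrated stress response, had no count in the 8-cell pools and 94.8 and 16.9 CPM in the morula pools (adjusted p = 1.62e-04), without a change in whole embryos past the test (adjusted p = 0.629; adjusted p of the difference = 0.00179). GADD45A, a damage response gene, stood at 64.8 and 58.5 CPM in the 8-cell pools and 6.22 and 8.31 CPM in the morula pools (log2 fold change -3.08 ± 0.46 (SE), adjusted p = 2.72e-05). The death genes BCL2L11 (71.4 and 56.7 against 16.6 and 2.1 CPM, adjusted p = 0.00388) and PMAIP1 (0 and 2.06 against 12.1 and 10.2 CPM, adjusted p = 0.0216) went in opposite directions. When the 12 polysome pools were fitted alone, 2 rose, TRIB3 among them, and 2 fell, GADD45A among them. Leaving out 1 gradient gave 6 (without morula A) to 13 (without 8-cell B) rises and 3 (without 8-cell B) to 8 (without 8-cell A) falls.

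Markers of cells other than blastomeres moved between the stages as well. Of 28 mesenchymal and extracellular matrix markers 12 fell and 4 rose in polysomes (median -1.65), 42.9% and 14.3% against 17.7% and 18.5% of all genes. In whole embryos 1 rose and 14 fell (median -3.57), 3.57% and 50% against 6.60% and 7.75% of all genes. With the 12 polysome pools alone 1 fell and 1 rose (FN1), and without TMM 12 fell and 2 rose. Without 8-cell transcriptome A, whose summed level of these markers is given above, 10 fell in whole embryos (median -2.01). The summed level of these markers was 2621 and 3389 CPM in the 8-cell pools and 2410.1 and 2382 CPM in the morula pools. Both morula pools lay below both 8-cell pools for 16 of the 28 and above them for 4, against 20.5% and 21.8% of all genes. COL1A1 stood at 29.8 and 3.63 against 0 and 0 CPM (adjusted p = 0.00186). POSTN stood at 4.96 and 38.8 against 0.0964 and 0.0288 CPM (adjusted p = 0.00192). TAGLN, of smooth muscle and fibroblasts, stood at 108 and 247 against 0 and 6.7 CPM (adjusted p = 0.0202). FN1 (fibronectin) went the other way, at 0 and 8.24 against 273 and 372 CPM (adjusted p = 1.05e-04). MYL9 (65.1 and 70 against 355 and 368 CPM) and S100A4 (0.041 and 4.5 against 53.8 and 10.2 CPM) were also higher in both morula pools. The pools of LGALS1 overlapped (588 and 550 against 1314 and 521 CPM). SPARC was lower in both morula pools but still stood at 330 and 802 CPM, against 965 and 1038 CPM. Of the 30 mesenchymal markers in the data 2 were at 0 in all 4 pools and 5 at 3 counts or fewer in both morula pools.

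Cumulus and granulosa markers fell in 9 of 22 cases and rose in 3 (median -1.66, and -1.0 with genes at 0 set to their bound), with a summed level of 281 and 449 CPM against 79.6 and 264 CPM. The shares were 40.9% lower and 13.6% higher, against 17.7% and 18.5% of all genes. INHA, the inhibin subunit of granulosa cells, had 36.1 and 55.8 against 0 and 0 CPM, CYP11A1, the first enzyme of steroid synthesis, 33.3 and 41.9 against 0 and 0.46 CPM, CD44 35.8 and 12.8 against 0 and 1.78 CPM and FST 0 and 27.6 against 0 and 0 CPM (adjusted p = 0.00116, 7.20e-05, 0.0057 and 0.00345). In polysomes FST was seen in 8-cell gradient B alone. CITED1 (0 and 1.98 against 11.7 and 15.8 CPM) and HSD3B1 (0.574 and 0.0271 against 5.54 and 10.9 CPM) were higher in both morula pools. The pools of SERPINE2 overlapped (113 and 187 against 36.1 and 185 CPM). In the fit of the 12 polysome pools alone 4 fell, INHA and CYP11A1 among them, and 0 rose. Of the 24 cumulus markers in the data 2 were at 0 in all 4 pools and 9 at 3 counts or fewer in both morula pools. Of 15 blood and immune markers 4 were at 0 in all pools. Those tested gave 4 higher and 1 lower of 12 (33.3% and 8.33% against 18.5% and 17.7% of all genes), with summed levels of 422, 476, 631 and 316 CPM. CD14 (0 and 0 against 76.8 and 7.99 CPM, adjusted p = 2.38e-04) and PECAM1 (0 and 0 against 10.1 and 60.6 CPM, adjusted p = 4.08e-06) rose and VWF (119 and 14 against 0.0482 and 4.37 CPM, adjusted p = 4.84e-04) fell. CD14 and PECAM1 were the 2 also called with the 12 pools alone. The fits that leave out 1 gradient gave 1 (without 8-cell A) to 6 (without morula B) rises and 6 (without morula A) to 14 (without morula B) falls for the mesenchymal list. Over the fits without 1 gradient there were 2 (without 8-cell A) to 5 (without 8-cell B) rises and 5 (without 8-cell B) to 13 (without morula B) falls for the cumulus list. More mesenchymal and cumulus markers fell than rose. NT5E, CLEC14A, TGFB1I1, many interferon-stimulated genes and many oocyte genes fell in the same comparison. The part of the markers in those results was not tested.

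Changes in polysomes and in whole embryos went in the same direction for most genes called in both: 605 rose in both, 636 fell in both and 55 went opposite ways. Genes called in polysomes were mostly not called in whole embryos (2054 of 2700 and 1943 of 2593). The difference of the 2 changes, tested itself, passed for 1819 genes. In 1029 the polysome change lay above the transcriptome change and in 790 below it (7.04% and 5.41% of those tested). These numbers rest on single gradients: without 8-cell gradient B 3049 lay above, and without morula gradient B 2087 lay below. With the libraries of the 2 stages alone 131 lay above and 60 below. Across genes the 2 log2 fold changes correlated at Pearson r = 0.42 and Spearman rho = 0.45, a description in which genes are not independent.

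Some mRNAs were present in every whole-embryo library but at or under the floor in the polysomes of one stage. Of 5369 genes at 10 CPM or more in all 6 transcriptomes, 36 had at most 3 counts in both 8-cell pools and 7 in both morula pools. The polysome change and its difference from the transcriptome passed the test for 32 of the former and 2 of the latter, of which 19 and 0 were also called with the 12 polysome pools alone. Since these genes were picked by the same polysome counts that were tested, passing is no separate evidence. TARS1, the threonyl-tRNA synthetase, was among them: whole embryos held 204, 121 and 109 CPM in the 8-cell transcriptomes and 225, 172 and 198 CPM in the morula transcriptomes, and the polysome pools 0.041 and 0 CPM at the 8-cell stage and 202 and 83.6 CPM in morulae (adjusted p of the difference = 4.30e-09). In this group were also COMMD10 (0 and 0 against 19.5 and 21.6 CPM), UBR1, an N-recognin ubiquitin ligase (0 and 0 against 10.1 and 10.7 CPM), VPS13D, a lipid transfer protein (0 and 0.0813 against 11.5 and 15.1 CPM), and EPHX2, an epoxide hydrolase (0 and 0 against 14.4 and 22.3 CPM), which were picked after their values were seen.

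**Figure D4:**
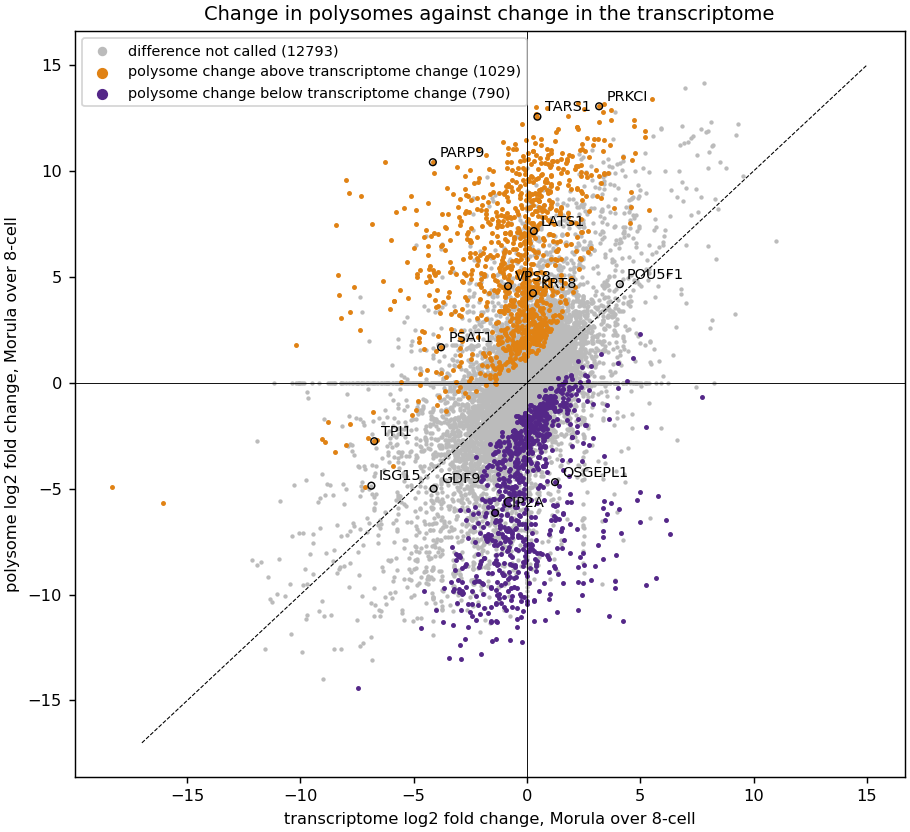
Each point is 1 of 14612 genes, with its log2 fold change (morula over 8-cell) in whole embryos on the x axis and in polysomes on the y axis; the dashed line marks equal change. Orange points (1029) lie above their transcriptome change and purple points (790) below it by the test of the difference, and POU5F1 sits close to the line while KRT8, LATS1 and TARS1 sit above it.

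Among genes with at least 10 counts in all 10 libraries, the largest differences upwards were found for TFCP2, HPDL, PSAT1, LYSMD4 and VPS8. VPS8, a tethering protein of endosomes, stood at 0.861 and 0.813 CPM in the 8-cell pools and 6.65 and 33.1 CPM in the morula pools, and at 34.4, 20.9 and 37.1 CPM in the 8-cell transcriptomes and 16.2, 18.9 and 16.6 CPM in the morula transcriptomes, a difference of 5.40 ± 0.71 (SE) on the log2 scale (adjusted p = 3.05e-05). LYSMD4 had 0.779 and 0.271 against 5.64 and 22.7 CPM in polysomes and 6.92 against 4.28 CPM on average in whole embryos (difference 5.46, adjusted p = 7.72e-05). PSAT1, of serine synthesis, fell in whole embryos (48.4 against 3.48 CPM, adjusted p = 6.60e-04), while its polysome pools held 1.11 and 14.5 against 13.5 and 36.5 CPM (adjusted p = 0.0961; difference 5.47, adjusted p = 0.00158). HPDL had 0.984 and 0.488 against 10.3 and 31 CPM (difference 6.12, adjusted p = 0.00736) and TFCP2 a difference of 6.17 (adjusted p = 0.00349) that rested on the F9 library of morula gradient A, as given above. The polysome rises of VPS8 and LYSMD4 were also called with the 12 polysome pools alone.

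The largest differences downwards were found for OSGEPL1, ENDOU, CREBL2, PHF20L1 and GLS2. OSGEPL1, a tRNA-modifying enzyme of mitochondria, stood at 40 and 7.27 CPM in the 8-cell pools and 0.675 and 1.12 CPM in the morula pools. Whole embryos held 32.9, 35 and 29.3 CPM in the 8-cell transcriptomes and 74.8, 60.8 and 93 CPM in the morula transcriptomes, a difference of -5.92 ± 0.73 (SE) (adjusted p = 1.46e-05). PHF20L1, a chromatin reader, had 87.6 and 15.9 against 1.88 and 0.863 CPM in polysomes (difference -4.87, adjusted p = 9.05e-04). CREBL2 stood at 43.2 and 11.2 against 0.916 and 0.575 CPM (difference -4.98, adjusted p = 0.00231), and the glutaminase gene GLS2 31.5 and 28.9 against 0.53 and 0.949 CPM (difference -4.79, adjusted p = 1.57e-04). ENDOU had 55.6 and 0.298 against 2.51 and 1.98 CPM (difference -5.19, adjusted p = 0.0318), and without 8-cell gradient A its log2 fold change was 2.88. OSGEPL1 did not keep its direction in every fraction, since with F9 alone it was higher in morulae (log2 fold change 6.75). The polysome falls of OSGEPL1, PHF20L1 and GLS2 were also called with the 12 polysome pools alone.

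Of the 55 genes called in opposite directions, 41 rose in polysomes and fell in whole embryos and 14 did the reverse. PARP9, an ADP-ribosyltransferase family member of the interferon response, had no count in the 8-cell pools and 4.96 and 13.9 CPM in the morula pools (adjusted p = 7.04e-06). Of the morula polysome fractions, only F9 of gradient A (9.97 CPM) and F10 of gradient B (35.9 CPM) held it. Whole embryos held 47, 28.9 and 35.4 CPM in the 8-cell transcriptomes and 2.43, 2.06 and 1.72 CPM in the morula transcriptomes (adjusted p = 3.49e-04). It was also called with the 12 polysome pools alone. The other 4 with the largest differences, P3H2 (0 and 0 against 0 and 2.39 CPM), CCNJL (0 and 0 against 0 and 2.44 CPM), ARHGAP24 (0 and 0 against 0 and 0.431 CPM) and ACTC1 (0.041 and 0 against 0.0964 and 13.8 CPM), were seen almost only in morula gradient B and were not called in that model.

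**Figure D5:**
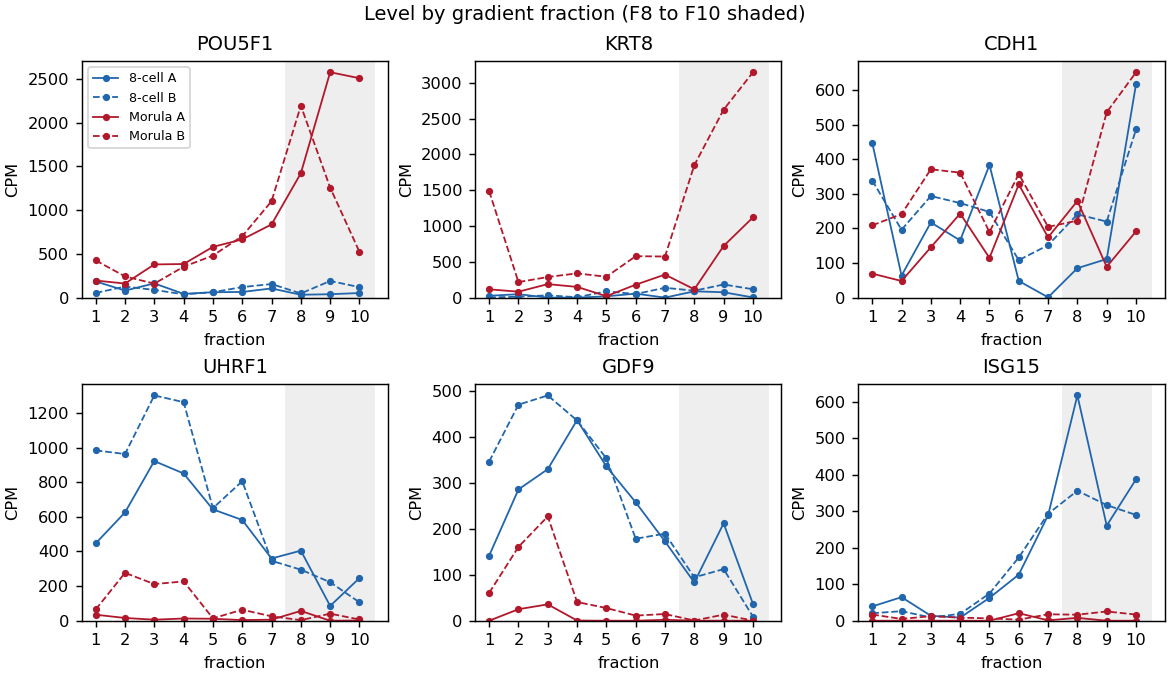
CPM in each of the 10 gradient fractions (x axis, F8 to F10 shaded) for 6 genes, with 8-cell gradients in blue and morula gradients in red, A solid and B dashed. POU5F1 climbs towards F9 and F10 in morula gradient A and peaks at F8 in gradient B, KRT8 is highest in F10 of both morula gradients, UHRF1 and GDF9 peak in the light fractions of 8-cell embryos, and ISG15 is highest in F8 of both 8-cell gradients.

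The study's text follows a set of genes over development, chosen there on these samples. Their values here are therefore no independent evidence of a direction. For part of that set the paper also draws on embryo protein data from another study. It reports abundant protein at the 8-cell stage for TUT7, PLAT, TAGLN, ORM1 and SERPINH1. It states that protein data backed the stage-specific expression of ZP3, UHRF1, SUN1, CST6, WFS1, DAG1, TUBG1, MMAB and CARS2. Those protein data were not examined here. UHRF1, ZP3, NANOG, KLF17, MYC and ISG15 of that set fell, as given above. Of 21 others 9 fell in polysomes from the 8-cell stage to the morula and 1 rose (MCM4, above). The paper ranks MCM4, LRWD1, KAT2A, SUV39H1, TAB1 and XAB2 among the strongest falls in polysomes over all 6 stages. It gives RAB17, SMIM7 and POLD4 as rises. MCM4 went the other way in this 1 step, which is only part of that course. PLAT, the tissue plasminogen activator, stood at 316 and 526 CPM in the 8-cell pools and 0 and 16.3 CPM in the morula pools (log2 fold change -5.68 ± 1.34 (SE), adjusted p = 0.00254). CST6, a cystatin, stood at 36.2 and 26.6 CPM in the 8-cell pools and 5.78 and 6.99 CPM in the morula pools (log2 fold change -2.29 ± 0.55 (SE), adjusted p = 0.00234). TUT7, which adds uridines to RNA tails, had 133 and 183 against 9.78 and 19.4 CPM (adjusted p = 2.43e-04). SERPINH1, a collagen chaperone, stood at 233 and 699.6 against 19.9 and 78.1 CPM (adjusted p = 0.0223). DAG1, the dystroglycan, stood at 41.5 and 65.1 against 0 and 10.4 CPM (adjusted p = 0.0203). MMAB stood at 77.4 and 33.4 against 14.7 and 19.2 CPM (adjusted p = 0.00276). ORM1 stood at 9.27 and 18.6 against 0 and 0 CPM (adjusted p = 0.00303). SUN1 and TAGLN are given above. Of the falls, SUN1 and CST6 were also called with the 12 polysome pools alone.

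The others did not pass the test. LRWD1 (43.7 and 37 against 12.2 and 44.3 CPM), KAT2A (111 and 68.3 against 41.6 and 58.2 CPM), SUV39H1 (118 and 53.8 against 30.6 and 49.5 CPM), TAB1 (121 and 108 against 75.5 and 80.1 CPM), XAB2 (75.2 and 319 against 80.3 and 170.0 CPM), TUBG1 (446 and 526 against 301 and 570.4 CPM) and WFS1 (7.1 and 52 against 0.771 and 17.9 CPM) had lower morula means, with adjusted p of 0.0569 for SUV39H1 and above that for the rest. CARS2 (55.7 and 123 against 118 and 151 CPM), RAB17 (23.9 and 41.3 against 35.6 and 65.2 CPM), SMIM7 (168 and 197 against 316 and 107 CPM) and POLD4 (10.2 and 15.3 against 43.5 and 6.38 CPM) had higher ones. With 2 pools a stage these differences could not be told from the spread between gradients.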

How the data were processed

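The authors spread lysates of cycloheximide-treated oocytes and embryos over sucrose gradients, cut each into 10 fractions, and made Smart-seq v4 and Nextera XT libraries from them and from whole oocytes or embryos. The deposited values are estimated counts per gene made by the authors with Salmon; the submitters' processing notes name Salmon, edgeR and UMD3.1, while the methods name another genome build, so no coordinates are given. Smart-seq libraries are amplified without molecular identifiers, so counts are not independent molecules. The floors cover counting error only, while the standard errors come from the fitted spread between pools and libraries. The table holds 16706 genes and 138 libraries, 11.7% of its values are not whole, and all were rounded.

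F8, F9 and F10 of a gradient were summed, as were F3 to F5. The 12 polysome pools and 18 transcriptomes of 6 stages, as 12 groups, were fitted together with edgeR 4.0.16 (R 4.3.3, limma 3.58.1): filterByExpr, TMM factors, quasi-likelihood test, Benjamini-Hochberg adjustment over all genes; a call is an adjusted p under 0.05 and a fold above 2. The difference between the polysome and transcriptome changes was a contrast of the same fit. The 12 monosome pools had a model of their own. The study's methods used edgeR's likelihood ratio test, which is an alternative here, as are DESeq2 1.42.0, other scalings, filters, models, single fractions, thinned counts, a replicate block and leaving out each library. Standard errors are the log2 fold change divided by the root of F. Scripts were tested on simulated data. Figures and tables used Python 3.11.15, numpy 2.4.6, pandas 2.3.3 and matplotlib 3.10.9.

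The comparison, its genes and the 29 gene lists were chosen with earlier results of these data known. Named genes are the 10 largest changes each way with over 3 counts in every pool and a mean of at least 10 CPM in the higher stage, the 5 each way with the highest CPM where the other stage had at most 3 counts per pool, the 5 largest differences each way from the transcriptome, 5 opposite calls, up to 4 called members a list, genes that define a list, and genes the study's text follows. Some genes that the rule names are not reported here. SOX2, a defining gene, did not enter the model. Among 20 library pairs that share a stage and fraction, 0 held identical values. Sequences and protein lengths were not analysed here.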

Additional observations from a re-analysis of the deposited data

Results flagged for a closer look

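The change from the 8-cell stage to the morula differed between polysomes and whole embryos, by the test of that difference in edgeR's quasi-likelihood model, most for 10 genes measured in all 10 libraries. In 5 the polysome change lay above the transcriptome change. TFCP2 had log2 fold changes of 5.77 in polysomes and -0.41 in whole embryos, a difference of 6.17 (adjusted p = 0.00349). HPDL had log2 fold changes of 4.81 in polysomes and -1.31 in whole embryos, a difference of 6.12 (adjusted p = 0.00736). PSAT1 had log2 fold changes of 1.68 in polysomes and -3.79 in whole embryos, a difference of 5.47 (adjusted p = 0.00158). LYSMD4 had log2 fold changes of 4.77 in polysomes and -0.69 in whole embryos, a difference of 5.46 (adjusted p = 7.72e-05). VPS8 had log2 fold changes of 4.56 in polysomes and -0.84 in whole embryos, a difference of 5.40 (adjusted p = 3.05e-05). In the other 5 it lay below. OSGEPL1 had log2 fold changes of -4.69 and 1.23, a difference of -5.92 (adjusted p = 1.46e-05). ENDOU had log2 fold changes of -3.63 and 1.56, a difference of -5.19 (adjusted p = 0.0318). CREBL2 had log2 fold changes of -5.19 and -0.21, a difference of -4.98 (adjusted p = 0.00231). PHF20L1 had log2 fold changes of -5.24 and -0.37, a difference of -4.87 (adjusted p = 9.05e-04). GLS2 had log2 fold changes of -5.31 and -0.53, a difference of -4.79 (adjusted p = 1.57e-04). The values of TFCP2 rest on the F9 library of morula gradient A and those of ENDOU on 8-cell gradient A. No group held 4 or more samples, so single samples were not tested as outliers.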

How the results depend on the processing

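Most named genes kept their direction in polysomes, while the number of calls moved with the model. Of 6108 combinations of a named gene and an alternative, 5127 kept direction and side of the threshold, 887 kept the direction without passing it, 33 passed only under the alternative, 27 turned round with a call, and 34 changed sign with no call in either. This total mixes unlike alternatives. Of 189 named genes, 161 kept their polysome direction without passing with the 4 pools alone, 80 with the 12 polysome pools and 53 with the 2 stages. Other filters and fits without 1 transcriptome gave 0 to 3, since they hardly touch the polysome comparison. Counts of called members of gene lists stayed within 1.5 times in 1343 of 1798 cases. All p-values come from edgeR's quasi-likelihood test unless another test is named.

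For genes higher and lower in morula polysomes the 12 polysome pools alone gave 609 and 464, the 2 stages alone 1243 and 881, and the 4 pools alone 0 and 0. Leaving out 1 library gave 2185 to 4007 higher and 1806 to 3384 lower genes, with the lone pool of a stage assumed to vary like the other groups. In transcriptomes the 2 stages alone gave 351 higher and 271 lower, a fold above 4 gave 417 higher, DESeq2 gave 1712 lower, and leaving out 1 library gave 660 to 1571 lower. The polysome change lay above the transcriptome change for 1562 genes by DESeq2, 1762 with F8 alone, 131 with the 2 stages alone, and 767 to 3049 with 1 library left out. It lay below for 1209 by the likelihood ratio test, 60 with the 2 stages alone, 526 with libraries thinned to the smallest total, and 570 to 2087 with 1 library left out. Opposite calls numbered 123 by DESeq2, 119 by the likelihood ratio test, 12 with F10 alone, 15 with F9 alone, 86 with F6 to F10, 2 with the 2 stages alone, and 25 to 224 with 1 library left out. In monosomes DESeq2 gave 2261 higher and 2542 lower, the likelihood ratio test 2162 and 2272, and leaving out 1 gradient 658 to 1700 and 640 to 2952. The 4 monosome pools alone gave 0 and 0, with 2560 genes at an unadjusted p under 0.05. The smaller models have fewer libraries and fewer degrees of freedom; the cause of the other shifts was not tested.

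The labels do not say whether the letters A and B pair gradients across stages. The A minus B deviations of the 8-cell and morula pools correlated at 0.0509 over 14612 genes. Only 2 pairs exist, so this cannot decide whether gradients of a letter shared a batch. With the letter as a replicate block 2497 genes rose and 2382 fell in polysomes, 899 and 984 in transcriptomes and 947 and 753 in monosomes, the difference passed for 863 above and 629 below, and 42 calls were opposite. In the 4 pools alone, chosen after seeing the data, the replicate block gave 4 higher and 0 lower, and crossed letters 0 and 0 (1127 genes at an unadjusted p under 0.05).

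Some named genes turned round in single fractions or without 1 gradient, given as log2 fold changes in polysomes. With F8 alone TFCP2 was at -7.74 (difference -7.30), CIP2A at 1.06, DHX38 at -0.21 and CYP11A1 at 5.86. With F9 alone OSGEPL1 was at 6.75 (difference 5.58), ENDOU at 2.20 (difference 0.73), CREBL2 at 2.07 (difference 2.35), GATA4 at 0.15, LSM6 at -0.13 and SREBF1 at -0.48. With F10 alone DUSP13 was at 0.39, GLS2 at 0.70 (difference 1.22), GAR1 at -0.35, MPHOSPH10 at -0.52 and LRWD1 at 9.84. With F6 to F10 POLR1A was at -0.12. With 1 library left out ENDOU ran from -4.63 to 2.88 (difference -6.19 to 1.32), GATA4 from -6.34 to 0.82, AMOTL1 from -3.72 to 1.10, GJA1 from -10.52 to 4.69 and ATP1B1 from -1.55 to 9.73.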
